A study of Homo sapiens with 6 samples.

Results

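The 4 human oligoadenylate synthetase (OAS) genes, OAS1, OAS2, OAS3 and OASL, were picked by symbol from a table of 22807 genes. All 4 had a mean normalised value of at least 1 over the 6 libraries and entered the test, OAS2 only through the libraries in which it was high. The samples were RNA sequencing libraries of MDA-MB-453, a long established line of HER2+ breast cancer cells. In 3 libraries the cells had received scrambled siRNA and carried the genotype label WT, and in the 3 others they had received siRNA against DUSP6, a phosphatase of ERK kinases, and carried the genotype label DUSP6 KD. Per the study's text, 3 different siRNAs against DUSP6 were compared with 3 different scramble controls. Which of them went into which library was not given in the sources used here, nor was the time between transfection and harvest. Both groups were transfected, and no untransfected cells were among the samples. Nothing in the labels said that the libraries of a group came from separate cultures, so the p-values measure the spread between these libraries, which may hold differences between siRNAs as well as technical ones.

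OAS enzymes are sensors of double-stranded RNA that are made at low level in resting cells and induced by interferon. On binding such RNA, OAS1, OAS2 and OAS3 join ATP into oligoadenylates with an unusual linkage, which serve as messengers of the antiviral response. The 3 enzymes differ in how many copies of the nucleotidyltransferase unit they hold, with the fewest in OAS1 and the most in OAS3. OASL keeps the fold but does not make oligoadenylates. It ends in ubiquitin-like domains and is known to enhance signalling by the RNA sensor RIG-I.

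In RefSeq on GRCh38.p14, OAS1, OAS3 and OAS2 lie in this order on the plus strand of chromosome 12, at 112906962 to 112933219, 112938474 to 112973251 and 112978519 to 113011723. The gaps between them are 5.26 kb and 5.27 kb, and the cluster spans 105 kb. OASL lies 8.01 Mb further along the same chromosome, at 121017761 to 121039246 on the minus strand. The representative transcripts in GENCODE (MANE Select) hold 6 exons and 1631 bases for OAS1, 10 exons and 4622 bases for OAS2, 16 exons and 6599 bases for OAS3, and 6 exons and 3270 bases for OASL.

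The promoters of OAS1 and OAS3 are shown because interferon-induced genes are commonly bound by the factor ISGF3 at repeats of GAAA set 2 bases apart, and because both genes rose. They were 2 of the 4 members matched in the RefSeq promoter table, which gives 250 bases before to 50 after the gene start on GRCh38.p14, here chr12:112906712-112907011 for OAS1 and chr12:112938224-112938523 for OAS3, both on the plus strand. Capitals mark matches to GAAANNGAAA or to GAAANGAAA, searched on both strands. The second motif was added after the sequences had been seen.
OAS1: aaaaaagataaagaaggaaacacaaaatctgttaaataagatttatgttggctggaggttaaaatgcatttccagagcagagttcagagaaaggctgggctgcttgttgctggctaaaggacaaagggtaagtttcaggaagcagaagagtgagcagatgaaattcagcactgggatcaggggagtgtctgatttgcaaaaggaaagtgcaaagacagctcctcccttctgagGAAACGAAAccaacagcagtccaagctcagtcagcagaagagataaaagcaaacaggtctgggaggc
OAS3: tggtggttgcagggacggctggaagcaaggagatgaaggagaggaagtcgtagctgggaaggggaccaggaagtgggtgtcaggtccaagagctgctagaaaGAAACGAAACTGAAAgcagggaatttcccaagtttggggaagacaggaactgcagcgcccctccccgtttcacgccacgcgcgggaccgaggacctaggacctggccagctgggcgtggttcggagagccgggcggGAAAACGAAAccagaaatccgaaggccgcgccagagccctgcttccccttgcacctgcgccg
The OAS3 promoter held GAAANNGAAA at 143 and at 12 bases before the start. A match to GAAANGAAA began 148 bases before the start and overlapped the first of them, which gave 3 match positions in all. The OAS1 promoter held 1 match, GAAANGAAA at 17 bases before the start. Of 35116 promoters of the same length, 3.57% held GAAANNGAAA, 3.12% held GAAANGAAA, 6.40% held either, and 0.0940% had at least as many match positions as OAS3. The last share counts overlapping matches and the motif added after the sequences had been seen, so it is a description only. All 4 matches of OAS1 and OAS3 lay on the strand of the gene. These are matches of letters, and binding was not measured.

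The libraries held 45546981 to 85729785 reads assigned to genes. A value is a count of reads relative to the library size as scaled by edgeR's TMM method, and 1 read is worth 0.0121 to 0.0202. DUSP6, the targeted gene, had values of 209, 110 and 114 with scrambled siRNA and 39.4, 24.5 and 35.2 with DUSP6 siRNA (log2 fold change -2.05, limma adjusted p = 3.09e-04). Another transcript on the opposite strand covers 24.1% of its exon sequence, so its value is uncertain. All 8 luminal and HER2+ epithelial markers had a value above 1 in every library, with a sum of 3971 to 5292 with scrambled siRNA and 2908 to 3109 with DUSP6 siRNA. The 4 leukocyte markers in the table, of 6 looked for, and the 3 endothelial markers were all below 1, and of 4 fibroblast markers COL1A1 alone was above 1. The fibroblast markers summed to 80.9 to 105 with scrambled siRNA and 162 to 192 with DUSP6 siRNA, the leukocyte markers to 0.230 to 0.301 and 0.464 to 0.746, and the endothelial markers to 0.372 to 0.402 and 0.208 to 0.294. The part of these shifts in the OAS values was not tested. Fewer expressing cells and less RNA per cell cannot be told apart in bulk RNA.

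With DUSP6 siRNA all 4 OAS genes rose, and every DUSP6 siRNA library lay above every scrambled siRNA library for each of them. All 4 passed the limma test over 12862 genes, where 19.7% of the genes tested were called higher and 24.7% lower, and all 4 passed edgeR's test on the recovered reads, where 19.1% were called higher. Values without overlap between the groups, higher with DUSP6 siRNA, were found for 26.7% of the genes tested, and lower ones for 31.1%. The summed value of the family was 27.5, 22.6 and 45.7 in the control libraries and 967, 640.5 and 1014 after DUSP6 siRNA, in replicate order. From control to knockdown the mean sum went from 31.9 ± 12.2 to 874 ± 203 (SD, n = 3), which is 27.4-fold. Reads of the family numbered 1180 to 3792 with scrambled siRNA and 47837 to 65625 with DUSP6 siRNA.

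**Figure D1:**
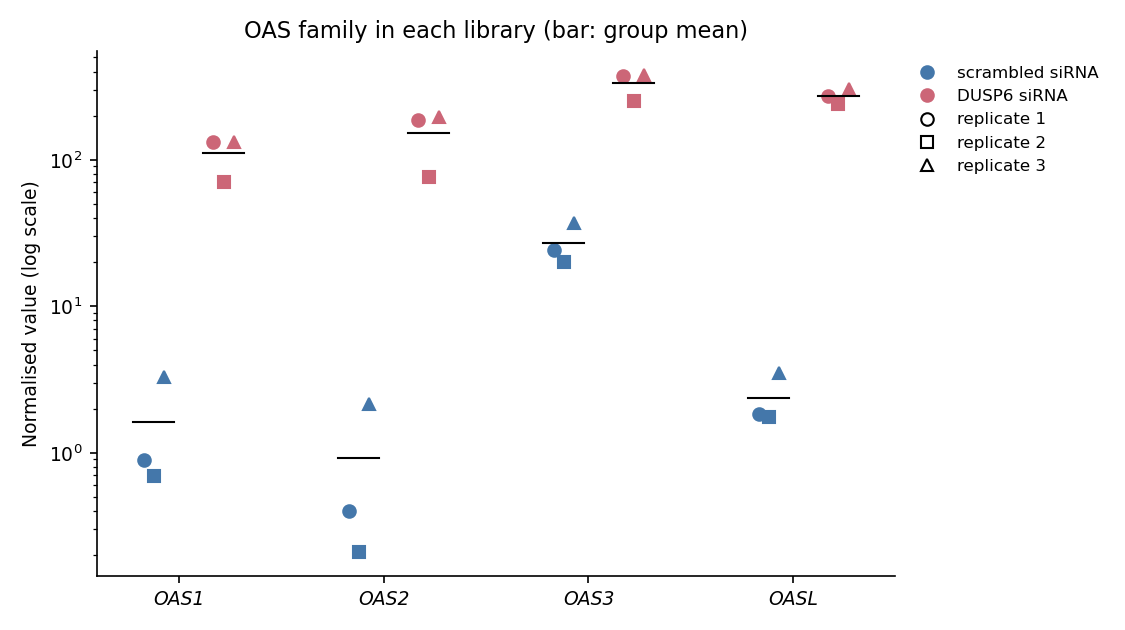
Normalised value (log axis) of OAS1, OAS2, OAS3 and OASL in each library, by group (colour) and replicate (symbol), with a bar at each group mean. For all 4 genes the DUSP6 siRNA libraries lie above the scrambled siRNA libraries, by the narrowest margin for OAS3, and scrambled siRNA replicate 3 is the highest control and DUSP6 siRNA replicate 2 the lowest knockdown library.

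OAS1 (Entrez gene 4938), the smallest synthetase, had normalised values of 0.893, 0.690 and 3.28 with scrambled siRNA and 132, 70.1 and 132 with DUSP6 siRNA. These came from 60, 36 and 272 reads and from 6521, 5730 and 8521 reads. The groups were far apart, with scrambled siRNA replicate 3 standing above its group and DUSP6 siRNA replicate 2 below its own. The lowest DUSP6 siRNA library was 21.4 times the highest scrambled siRNA library. The mean of 1.62 ± 1.44 went to 111 ± 35.6 (SD, n = 3), and the log2 fold change on the log2(value + 1) scale was 5.49 (standard error 0.36, 95% interval 4.69 to 6.30, limma adjusted p = 1.08e-05). A GENCODE transcript on the opposite strand covers 5.64% of the OAS1 exon sequence, and the stated counting takes no account of strand, so a small part of its reads is uncertain.

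OAS2 (Entrez gene 4939) was the member with the lowest level in control cells, and most of its reads there came from 1 library. Its values were 0.402, 0.211 and 2.15 with scrambled siRNA, from 27, 11 and 178 reads, and 187, 76.0 and 197 with DUSP6 siRNA. Again scrambled siRNA replicate 3 was the high control and DUSP6 siRNA replicate 2 the low knockdown library. The ratio of the lowest DUSP6 siRNA to the highest scrambled siRNA library was 35.4. The mean went from 0.919 ± 1.07 to 153 ± 67.1 (SD, n = 3), which by limma was 6.34 on the log2 scale (adjusted p = 1.19e-05, standard error 0.42). The control mean was under the filter of 1, so OAS2 entered the test only through the DUSP6 siRNA libraries. In the fit without a filter it was called higher as well (limma adjusted p = 3.00e-04). With so few control reads the size depends on what is added before the logarithm. It was 7.64 with 0.1 in place of 1, and 7.26 by edgeR on the reads.

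OAS3 (Entrez gene 4940), the synthetase with the most repeated units, was already present in control cells. Its values were 24.4, 19.9 and 36.8 with scrambled siRNA and 374, 254 and 381 with DUSP6 siRNA. The order of the libraries within each group was that of OAS2, at a smaller spread. The lowest DUSP6 siRNA library was 6.90 times the highest scrambled siRNA library. The mean went from 27.0 ± 8.71 to 337 ± 71.8 (SD, n = 3), and limma gave 3.61 as the log2 fold change (adjusted p = 8.86e-06, standard error 0.22).

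OASL (Entrez gene 8638), the member without synthetase activity, had 1.84, 1.76 and 3.52 with scrambled siRNA and 274, 241 and 304 with DUSP6 siRNA. The gap between the groups was the widest of the 4, with the lowest DUSP6 siRNA library at 68.4 times the highest scrambled siRNA library. The DUSP6 siRNA libraries lay closer to each other than for any other member. Their coefficient of variation was 11.6%, where the median over all genes tested was 6.04%. The limma log2 fold change was 6.37 (adjusted p = 1.67e-07, standard error 0.19). Among the 12862 fold changes OASL ranked 3, OAS2 ranked 4, OAS1 ranked 14 and OAS3 ranked 29 from the top. The order of OASL and OAS2 turned with the scale, at 6.85 and 7.64 with 0.1 added and at 6.82 and 7.26 by edgeR. For each of the 4 genes the two-sided exact permutation test of the group means gave p = 0.1, which is the lowest value possible with 3 libraries per group.

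**Figure D2:**
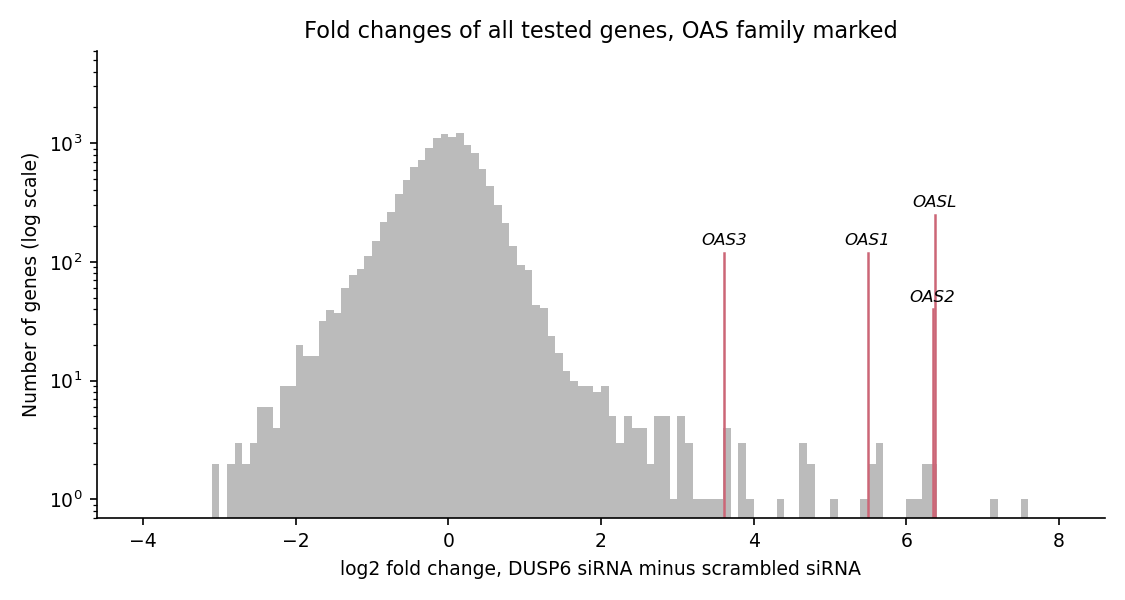
Histogram of the log2 fold changes of the 12862 genes tested, DUSP6 siRNA minus scrambled siRNA, with the number of genes on a log axis and lines at the OAS genes. The OAS genes lie in the sparse upper tail between 3.61 and 6.37, and the main body lies around 0, with a median of -0.01.

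The sizes of the 4 rises were set against each other in pairs, where 3 libraries per group cannot bring an exact permutation test under p = 0.1. The gap between OAS3 and OASL on the log2(value + 1) scale was 3.16, 2.92 and 3.06 with scrambled siRNA and 0.45, 0.08 and 0.33 with DUSP6 siRNA, a difference of -2.76 in the change of OAS3 minus that of OASL. The change of OAS2 minus that of OAS3 was 2.73, and of OAS1 minus OAS3 1.88. The change of OAS1 was smaller than those of OASL and OAS2, with differences of -0.88 and -0.85. In these 5 of the 6 pairs the groups did not overlap (two-sided exact permutation test, p = 0.1, adjusted over the 6 pairs p = 0.12). OAS2 and OASL changed by amounts that differed by -0.03 on this scale, with overlapping groups (exact permutation p = 0.9). With nothing added before the logarithm, the differences without overlap were -1.56 for OAS1 minus OAS2, 2.74 for OAS1 minus OAS3, 4.30 for OAS2 minus OAS3 and -3.25 for OAS3 minus OASL (exact permutation p = 0.1, adjusted p = 0.15). On that scale the change of OAS2 minus that of OASL was 1.04 and the groups still overlapped (exact permutation p = 0.2, adjusted p = 0.24), and the OAS1 and OASL groups overlapped too, with a difference of -0.51 (exact permutation p = 0.4).

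The make-up of the family was also compared, again with no p under 0.1 possible. Levels between genes were compared per kilobase of the MANE Select transcript. OAS3 made up 75.5%, 75.0% and 61.1% of the summed level in the scrambled siRNA libraries and 21.7%, 22.4% and 21.1% in the DUSP6 siRNA libraries. OASL made up 11.5%, 13.4% and 11.8% and then 32.0%, 42.9% and 33.9%. Each DUSP6 siRNA library held a smaller share of OAS3 and a larger share of OASL than any control, with mean differences of -48.8 and 24.1 percentage points. OAS1 went from 14.6 ± 6.47% to 28.5 ± 3.03% and OAS2 from 2.67 ± 2.12% to 13.5 ± 3.41% (SD, n = 3). None of the 4 shares overlapped between the groups (two-sided exact permutation test, p = 0.1 for each, also after adjustment over the 4).

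**Figure D3:**
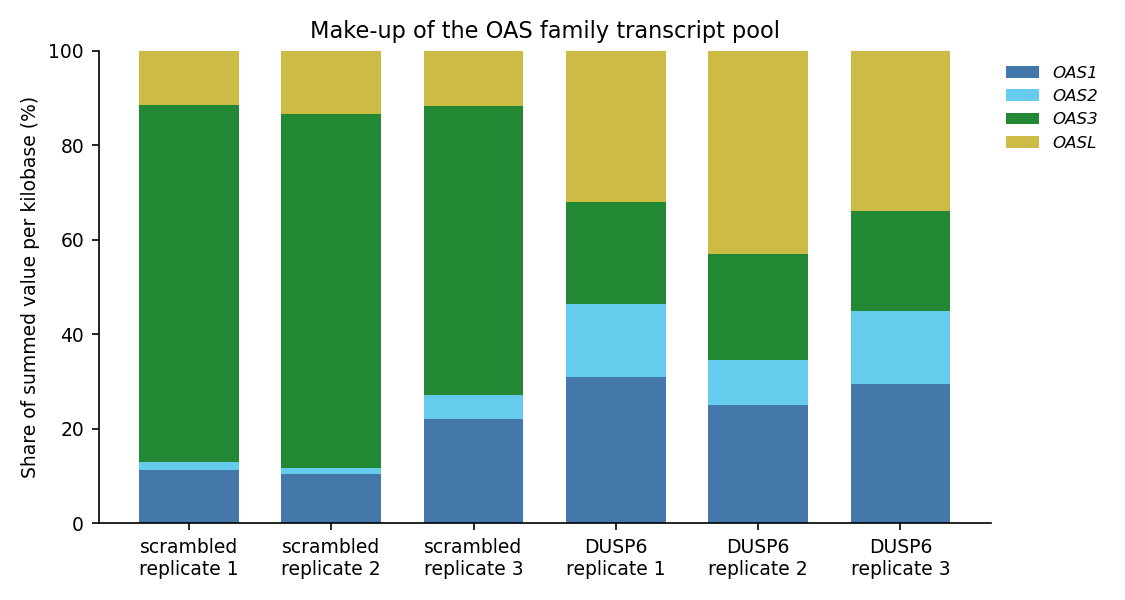
Share (%) of each OAS gene in the summed level per kilobase, as stacked bars that add to 100% in each library. OAS3 fills 61.1% to 75.5% of the scrambled siRNA bars and 21.1% to 22.4% of the DUSP6 siRNA bars.

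In order of the level per kilobase, OAS3 led with 4.09 ± 1.32 in the scrambled siRNA libraries, ahead of OAS1 with 0.993 ± 0.882, OASL with 0.726 ± 0.303 and OAS2 with 0.199 ± 0.231 (SD, n = 3). OAS3 was the highest and OAS2 the lowest in each of the 3 libraries. OASL was above OAS1 in scrambled siRNA replicates 1 and 2, and OAS1 was above OASL in replicate 3 alone. In the DUSP6 siRNA libraries OASL led with 83.5 ± 9.67, followed by OAS1 with 68.2 ± 21.8, OAS3 with 51.0 ± 10.9 and OAS2 with 33.1 ± 14.5. This order held in each of the 3 libraries, although the ranges of OASL and OAS1, of OAS1 and OAS3, and of OAS3 and OAS2 overlapped. The place of OAS1 depended on the transcript length used. Divided by the union of all annotated exons, OAS1 made up 9.98 ± 1.44% of the DUSP6 siRNA level and came last in all 3 libraries, with the order OASL, OAS3, OAS2 and OAS1. Among the controls, that length put OASL above OAS1 in each library. The mean share of OAS3 was lower and the other 3 mean shares higher with DUSP6 siRNA under both lengths.

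Within the groups the 4 OAS genes shared the highest control and the lowest knockdown library. Scrambled siRNA replicate 3 held 7.01 times the mean of the 2 other controls for OAS2, 4.14 times for OAS1, 1.95 times for OASL and 1.66 times for OAS3. Of all genes tested, 0.0311%, 0.0777%, 1.02% and 2.33% had a larger ratio there. DUSP6 siRNA replicate 2 held 0.396 times the mean of the 2 other knockdown libraries for OAS2, 0.532 times for OAS1, 0.671 times for OAS3 and 0.833 times for OASL, and 0.117%, 0.428%, 2.02% and 8.55% of the genes had a smaller ratio. In both groups OAS2 varied most and OAS1 next, with coefficients of variation of 116% and 88.8% among controls and 43.8% and 32.0% among knockdown libraries. The median over all genes was 12.7% and 6.04%.

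Interferon reads and DUSP6 are given for the same libraries. Reads of IFNB1, IFNL1, IFNL2 and IFNL3, which encode interferons, summed to 5, 2 and 29 in the controls and to 1709, 1493 and 2477 after DUSP6 siRNA, in replicate order. The control with the highest OAS values thus had the most interferon reads, and the knockdown library with the lowest OAS values had the fewest. IFNL2 and IFNL3 are near-identical copies, and the split of reads between them is uncertain. DUSP6 itself was at 0.657 times the mean of the 2 others in DUSP6 siRNA replicate 2. Among the controls it was at 1.86, 0.683 and 0.716 times in replicates 1 to 3, so replicate 1 stood apart for DUSP6 and replicate 3 did not. Whether these values bear on the spread of the OAS genes was not tested. Leaving out scrambled siRNA replicate 3 gave log2 fold changes of 5.91 for OAS1, 6.77 for OAS2, 3.85 for OAS3 and 6.60 for OASL. Leaving out DUSP6 siRNA replicate 2 gave 5.79, 6.79, 3.80 and 6.46, and all stayed called.

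Genes most like each member were found by the root mean square difference of log2(value + 1) over the 6 libraries. Each gene was centred on its control mean but not scaled, so the size of the rise counted too. These genes were chosen for this likeness, so the values are a description. IFI44 was closest to OAS1 at 0.131, with values of 0.580, 0.575 and 1.99 and then 108, 61.6 and 111. It shared the high scrambled siRNA replicate 3 and the low DUSP6 siRNA replicate 2 of OAS1. IFI44L was closest to OAS2 at 0.190, with values of 0.0446, 0.0383 and 0.868 and then 117, 54.0 and 126. For OAS3 the closest were UBE2L6 at 0.211, PARP14 at 0.214 and HLA-F at 0.236, and HLA-F shares sequence with other HLA genes. For OASL they were IFIT2 at 0.150, RSAD2 at 0.273 and IFIT3 at 0.275. The next after IFI44 for OAS1 were IFI27 at 0.281 and DDX60 at 0.284, and the next after IFI44L for OAS2 were IFIT2 at 0.358 and RSAD2 at 0.391. Among the members themselves OAS2 and OASL were nearest by this distance at 0.408, and OAS3 was 1.96 away from both.

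Of 3 other genes of the oligoadenylate pathway, 2 were called higher, both by little, and 0 lower. Of all genes tested, 19.7% were called higher and 24.7% lower. ABCE1, also known for recycling ribosomes, had 194, 151 and 154 with scrambled siRNA and 134, 136 and 143 with DUSP6 siRNA. All knockdown libraries were below the controls, but the log2 fold change of -0.26 did not pass (limma adjusted p = 0.0777), and 9.90% of its exon sequence is shared with neighbours on the other strand. PDE12, which degrades oligoadenylates, had 45.8, 41.3 and 44.0 and then 51.5, 54.5 and 52.8 (log2 fold change 0.27, limma adjusted p = 0.0326). AKAP7, whose longer forms hold a domain that also degrades oligoadenylates, stayed near the filter. Its values were 1.65, 1.53 and 0.988 and then 1.96, 2.21 and 2.19 (log2 fold change 0.40, limma adjusted p = 0.0386). PDE12 and AKAP7 each stayed called in 2 of the 6 fits that left out a library. By limma 0 passed lower, with 1 at an unadjusted p under 0.05 and 0 by edgeR, and the median log2 fold change of the 3 was 0.27, where that of all genes was -0.01.

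Of 5 relatives with a nucleotidyltransferase fold, 0 were called higher and 2 lower, where 24.7% of all genes tested were called lower, with a median log2 fold change of -0.24. edgeR gave the same counts. At an unadjusted p under 0.05, limma also had 0 higher and 2 lower. CGAS, the DNA sensor whose fold is like that of OAS1, had 8.45, 6.15 and 8.11 with scrambled siRNA and 5.72, 4.85 and 5.93 with DUSP6 siRNA (log2 fold change -0.39, limma adjusted p = 0.0458). MB21D2, named for the same domain, was lower too, with 48.8, 53.7 and 42.2 and then 26.1, 25.2 and 26.9 (log2 fold change -0.86, limma adjusted p = 3.73e-04). ILF2, STRBP and ZFR had 0.01, -0.04 and -0.24 on the log2 scale and were not called. MB21D2 stayed called in each of the 6 fits without a library, and CGAS in 1.

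Other sensors of foreign nucleic acid were mostly higher. Of 9, 6 passed the filter, of which 5 were called higher and 1 lower. DDX58, the gene of RIG-I, had the largest change of them with a log2 fold change of 4.35, from 25.5, 30.0 and 35.7 to 641, 569 and 696. IFIH1 (3.41), DHX58 (3.13), EIF2AK2 (2.03) and ADAR (1.51), which encode further binders of double-stranded RNA, rose by less than DDX58. MAVS, the adaptor of the RIG-I pathway, had -0.24 (limma adjusted p = 0.0437) and stayed called in 1 of the 6 fits without a library. TLR3, ZBP1 and STING1 were left out by the filter. TLR3 had 0.0595, 0.0192 and 0.0241 with scrambled siRNA and 0.607, 0.465 and 0.865 with DUSP6 siRNA, and ZBP1 had 0 in each control and 0.0489 to 0.101 with DUSP6 siRNA. STING1 went the other way, with 1.09, 0.920 and 0.916 and then 0.202, 0.171 and 0.278. In the fit without a filter TLR3 and ZBP1 were called higher (limma adjusted p = 0.00177 and 0.00900) and STING1 lower (limma adjusted p = 3.80e-04). The ZBP1 values rest on 4 to 6 reads per DUSP6 siRNA library. Of 5 transcription factor genes of the interferon response, 4 were called higher, namely IRF9 (3.70), IRF7 (2.71), IRF1 (2.24) and STAT2 (1.51), while IRF3 had 0.17 and was not called. IRF9 and STAT2 encode parts of ISGF3. The lists are read against the 19.7% of all genes called higher.

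**Figure D4:**
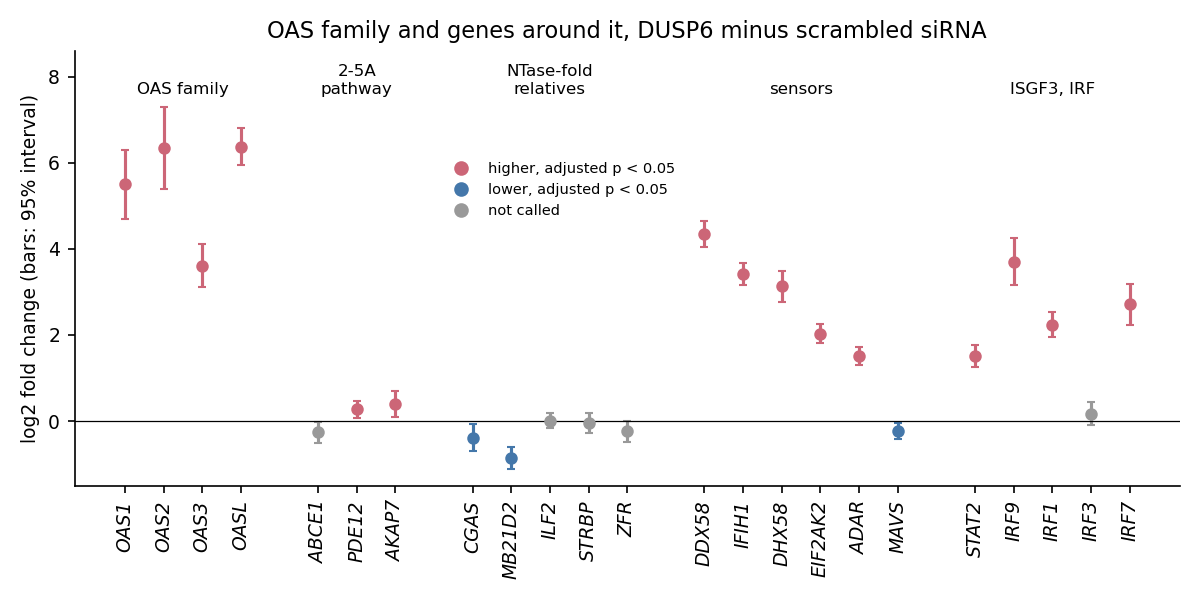
Log2 fold change with its 95% interval for the OAS genes and for the tested genes of the 4 lists around them, DUSP6 siRNA minus scrambled siRNA, coloured by limma call. The OAS genes lie between 3.61 and 6.37, the oligoadenylate pathway between -0.26 and 0.40, and the nucleotidyltransferase (NTase) fold relatives between -0.86 and 0.01.

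None of the tested genes beside the OAS genes rose as far as they did. Of the 5 nearest genes of the table on each side of the cluster, 7 passed the filter, 1 was called higher and 4 lower, with a median log2 fold change of -0.40. Over all genes tested these calls took 19.7% and 24.7%. The nearest on either side, RPH3A at 8.08 kb and DTX1 at 45.0 kb, were below 1 in every library, at 0 to 0.0607 and at 0.162 to 0.446. RPH3A had 0 to 1 reads per control library and 3 to 4 per DUSP6 siRNA library. In the fit without a filter it was called higher (limma adjusted p = 0.0167). DTX1 was lower there but not called (limma adjusted p = 0.0986). RASAL1, 87.6 kb from OAS2, had 3.76, 3.49 and 4.93 with scrambled siRNA and 2.49, 2.15 and 2.29 with DUSP6 siRNA (log2 fold change -0.60, limma adjusted p = 0.00587). Of the tested neighbours, the ribosomal protein gene RPL6 had the largest change at -1.01. TRAFD1, at 753 kb the farthest on its side, was the sole tested one called higher, at 0.41. Around OASL, 9 neighbours were looked at and 5 passed the filter. By limma 1 was called higher, SPPL3 at 0.32, and 0 lower. At an unadjusted p under 0.05, 2 were lower, P2RX4 with -0.36 (limma adjusted p = 0.0506) and ANAPC5 with -0.23 (limma adjusted p = 0.0600), and edgeR called 1 of them lower.

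**Figure D5:**
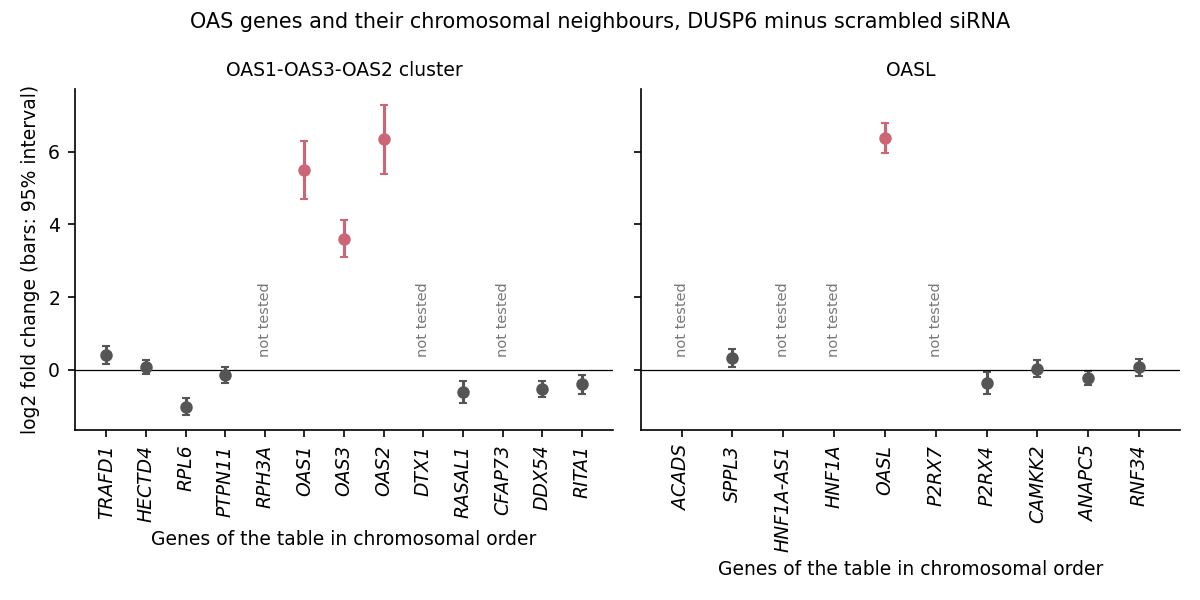
Log2 fold change with its 95% interval for the OAS genes (red) and neighbouring genes of the table (grey), in chromosomal order, DUSP6 siRNA minus scrambled siRNA. Genes under the filter are marked as not tested, and the tested neighbours lie between -1.01 and 0.41, below the OAS genes at 3.61 to 6.37.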

How the data were processed

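RNA of MDA-MB-453 cells, 3 libraries per group, was sequenced by the authors with a stranded mRNA kit, aligned to hg38 with Rsubread 2.0.0 and assigned to RefSeq genes with default settings. The submitters' processing notes also name bcl2fastq and edgeR. The deposited table holds 1 normalized signal value per gene and library. All values were whole multiples of 1 step per library (tolerance 0.01 read), which gave back the reads, and the steps differed by 0 from edgeR's TMM scaling. limma 3.58.1 in R 4.3.3 (lmFit, eBayes with a trend) was run on log2(value + 1). It tested the 12862 genes whose mean value reached 1, adjusted by Benjamini-Hochberg over these, with calls at an adjusted p under 0.05. The quasi-likelihood test of edgeR 4.0.16 on the reads, other scalings, filters and pseudocounts, a replicate block and leaving out each library were alternatives. limma and edgeR were also run on simulated data. The spread set there was smaller than that of the OAS genes among controls, so the simulation does not cover these genes.

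The genes named were the 4 members, DUSP6, the lists and, for each member, the 3 genes most alike. A few genes of the lists are not reported here, and the lists are counted without them. COL1A1, the interferon genes, the neighbours' values and the union of exons as a length were chosen after values had been seen. The members and lists were chosen with earlier results of these data known. Positions came from RefSeq GRCh38.p14, which held 22359 of the 22807 gene IDs, and transcript lengths from GENCODE. Amino acid sequences were not used here.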

Additional observations from a re-analysis of the deposited data

How the results depend on the processing

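All 4 OAS genes and DUSP6 kept their direction and their call in each alternative. Over the 8 settings with all libraries, the log2 fold change ran from 5.48 to 6.27 for OAS1, 6.30 to 7.64 for OAS2, 3.61 to 3.73 for OAS3 and 6.37 to 6.85 for OASL, and without 1 library from 5.24 to 5.91, 6.08 to 6.79, 3.42 to 3.85 and 6.25 to 6.60. The number of all genes called higher was 2540. It was 1639 with a mean value of at least 10, where fewer genes were tested, and 1535 to 3213 without 1 library, lowest without DUSP6 siRNA replicate 2. With quantile normalization 2958 genes were higher and 2887 lower.

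The small lists moved more, and the cause was not tested. Without 1 library, 0 to 2 genes of the oligoadenylate pathway were higher and 0 to 1 lower, 1 to 2 nucleotidyltransferase-fold relatives and 0 to 1 sensors were lower, 0 to 1 neighbours of the cluster and 0 to 1 of OASL were higher, and 0 to 1 neighbours of OASL were lower. Quantile normalization called 1 pathway gene and 1 relative higher and 0 sensors lower. The replicate block called 1 pathway gene higher and 0 sensors lower, and eBayes without a trend 0 sensors lower. Without a filter 1 pathway gene was higher, 7 sensors were higher (5 in the main fit) and 2 lower, and 1 relative was lower. In that fit 2 neighbours of the cluster and 0 neighbours of OASL were higher. With a mean value of at least 10, 1 pathway gene was higher and 1 relative lower. A pseudocount of 0.1, the median of ratios and edgeR each called 1 neighbour of OASL lower.

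Replicate numbers were not used to pair the samples in the main fit. The deviations of same-numbered libraries correlated at 0.005, 0.0868 and -0.0764, and those of different-numbered ones at -0.0907 to 0.132. These values cannot exclude a pairing with a weak effect. With the replicate block 2495 genes were higher and 3096 lower, and the log2 fold changes of OAS1, OAS2, OAS3, OASL and DUSP6 were 5.49, 6.34, 3.61, 6.37 and -2.05. With 11 reads, the OAS2 value of scrambled siRNA replicate 2 has a 95% counting interval of 0.105 to 0.377, which covers counting error only. Other low control values were limited by counting too. The interval was 0.265 to 0.584 for OAS2 in scrambled siRNA replicate 1 and 0.483 to 0.955 for OAS1 in replicate 2. For the OAS values with DUSP6 siRNA the spread between libraries was wider than the counting intervals.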
